A study of Homo sapiens with 6 samples.

Results

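The 43 genes described here encode the machinery that licenses replication origins, unwinds and copies DNA, supplies deoxynucleotides and drives the G1/S transition. They were chosen by name and known role, with no rule on their values, although earlier results of these data were known. The deposited tables list 34644 gene names, and all 43 passed the filter on low counts. By role they comprise 10 licensing genes, 6 helicase activation genes, 6 polymerase genes, 7 sliding clamp and maturation genes, 3 replication protein A genes, 4 nucleotide supply genes, 4 E2F and cyclin E genes, and 3 chromatin and checkpoint genes.

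Bulk RNA-seq was performed on HK-2 cells, an immortalized human proximal tubular epithelial cell line. Both groups received a single 8 Gy dose of X-rays and were harvested on day 7, so irradiation is shared by every library and no unirradiated library is analysed here. The IR+NC-LV group (n = 3) carried a negative control lentivirus and the IR+PR-LV group (n = 3) a lentivirus overexpressing PRDM16, a transcriptional regulator with a PR domain and zinc fingers. The comparison asks how replication genes stood in irradiated cells with and without added PRDM16. The cells carrying either virus were populations selected with puromycin, and the labels do not say whether the 3 samples of a group were separate cultures, so the p-values measure the spread between these samples, which may be technical.

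In dividing cells the origin recognition complex, CDC6 and CDT1 load the MCM2-7 helicase onto origins during G1, and CDC45 and GINS then activate it. Polymerases alpha, delta and epsilon copy the strands, with PCNA as the sliding clamp that RFC loads and RPA coating single-stranded DNA. Most of these genes are transcribed at the G1/S boundary by E2F factors once cyclin-dependent kinases release them from RB proteins, and cells that leave the cycle, senescent cells included, are known for low levels of them. HK-2 cells were immortalized with the papillomavirus genes E6 and E7, and E7 is known to bind RB proteins.

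The total count per library ran from 13407074 to 28540041. For PRDM16 itself the control libraries held 2, 0 and 1 counts and those with PRDM16 lentivirus 14, 10 and 8, so its direction followed the labels at a low level. Of 20 epithelial and renal markers 7 stood over 20 TPM (a level per transcript length, scaled to the same total in each library), among them KRT8, PAX8 and GGT1. Others were low, with means of 0.42 TPM for CDH1 and 3.06 TPM for PAX2. The mature tubule genes LRP2, SLC22A6, SLC22A8 and HNF4A were at or near 0 in every library. Among 11 markers of other cell types, PTPRC, UMOD and AQP2 were at or near 0. The summed level of that list was 186 to 203 TPM in IR+NC-LV and 157 to 172 TPM in IR+PR-LV. Nearly all of it was CD68, and its part in the results was not tested. Across 15340 tested genes, 10 passed an adjusted p of 0.05 in the quasi-likelihood test of edgeR, adjusted by the Benjamini-Hochberg method. The 7 lower in IR+PR-LV were GADD45A, TRAF1, NR1D1, NEURL3, ATF3, TNFAIP3 and ANO2, and the 3 higher were ABR and second listed copies of SCAMP3 and CHCHD10.

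The promoters of these genes are shown for what they share beyond the list itself. RefSeq promoter windows (GRCh38.p14, 250 bases before to 50 after the start) were matched for 37 of the 43 genes, the unmatched being MCM4, MCM5, RPA2, RPA3, GINS4 and CCNE2. In each sequence below, given 5′ to 3′ on the gene's strand from 180 bases before the start to 20 after it, capitals mark the letters TTTCCCGC, TTTGGCGC, TTTCGCGC or TTTGCCGC on either strand, which are forms of the E2F motif. The genes are 1 helicase subunit with repeated matches, E2F1 itself, and the 5 genes whose groups did not overlap. MCM6 lies at chr2:135876424-135876623 (minus strand), E2F1 at chr20:33686366-33686565 (minus), PCNA at chr20:5126603-5126802 (minus), RPA1 at chr17:1829825-1830024 (plus), RFC4 at chr3:186806463-186806662 (minus), CLSPN at chr1:35769959-35770158 (minus) and E2F2 at chr1:23531214-23531413 (minus).
MCM6: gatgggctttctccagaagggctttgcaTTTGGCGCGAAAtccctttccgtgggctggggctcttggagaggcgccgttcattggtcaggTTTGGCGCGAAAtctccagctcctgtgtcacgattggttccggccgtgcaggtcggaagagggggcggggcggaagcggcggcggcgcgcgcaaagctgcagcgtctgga
E2F1: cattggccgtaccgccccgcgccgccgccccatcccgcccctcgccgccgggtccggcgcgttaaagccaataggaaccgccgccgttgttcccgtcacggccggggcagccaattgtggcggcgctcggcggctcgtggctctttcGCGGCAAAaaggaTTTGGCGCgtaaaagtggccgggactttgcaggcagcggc
PCNA: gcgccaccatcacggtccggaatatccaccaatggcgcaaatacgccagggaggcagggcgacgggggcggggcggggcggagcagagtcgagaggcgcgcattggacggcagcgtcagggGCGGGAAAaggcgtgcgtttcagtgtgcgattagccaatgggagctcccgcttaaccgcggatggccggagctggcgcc
RPA1: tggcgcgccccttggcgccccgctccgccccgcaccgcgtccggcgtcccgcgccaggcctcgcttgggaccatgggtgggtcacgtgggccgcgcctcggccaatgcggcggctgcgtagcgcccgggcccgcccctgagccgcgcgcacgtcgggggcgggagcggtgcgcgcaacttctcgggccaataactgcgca
RFC4: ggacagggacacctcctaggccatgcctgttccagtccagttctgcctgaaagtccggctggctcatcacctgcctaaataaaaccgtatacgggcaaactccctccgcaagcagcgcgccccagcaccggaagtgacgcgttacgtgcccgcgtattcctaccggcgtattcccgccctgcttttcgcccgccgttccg
CLSPN: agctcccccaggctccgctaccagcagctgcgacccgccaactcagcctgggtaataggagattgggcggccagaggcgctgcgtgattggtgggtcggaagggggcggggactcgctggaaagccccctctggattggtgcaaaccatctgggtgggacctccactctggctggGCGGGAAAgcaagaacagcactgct
E2F2: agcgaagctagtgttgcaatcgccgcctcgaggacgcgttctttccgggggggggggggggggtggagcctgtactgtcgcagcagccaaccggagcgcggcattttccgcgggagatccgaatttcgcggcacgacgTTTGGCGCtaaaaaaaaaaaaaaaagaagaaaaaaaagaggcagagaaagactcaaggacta

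The E2F letters were found in 20 of 37 promoters (54.1%), against 3.33% of the 27305 RefSeq genes and 5.15% of the 11679 tested genes with a window. MCM6 held 4 matches, which overlap in pairs because TTTGGCGC read on one strand runs into TTTCGCGC on the other. MCM2, MCM3, MCM7 and E2F1 held 2 each, and those of MCM2, which begin at positions 3 and 7, also overlap. RPA1 and RFC4 held none of these letters in the window. The letters CCAAT, the box bound by the factor NF-Y, were found on either strand in 21 of 37 promoters (56.8%), against 35.7% of RefSeq genes, and in 9 of 9 promoters of a list of G2/M genes (mitotic genes such as CCNB1 and AURKB). TTTGAA, a form of the CHR element of mitotic promoters, was found in 1 of 37 (2.70%, RRM1) and in 6 of 9 G2/M promoters. It was found in 15.4% of RefSeq genes and in 9.97% of tested genes. A match describes the letters in the window and not a bound site.

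The replication genes were abundant in the irradiated cells of both groups. Their median level over the 6 libraries was 76.2 TPM, against 16.3 TPM over all tested genes, and 42 of the 43 stood over 20 TPM and 18 over 100 TPM. The highest was PCNA with a mean of 541 TPM, and 13 of the 43 lay above the 90th percentile of the tested genes. E2F2 was the exception, with a mean of 0.608 TPM for the copy with most counts of the 2 listed. How reads that match both copies were counted was not tested. In bulk RNA, the share of cells in S phase and the level of these RNAs per cell cannot be told apart.

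The 43 levels summed to 4310, 4295 and 4342 TPM with the control virus and to 4359, 4398 and 4320 TPM with PRDM16. The groups overlapped, with means of 4316 ± 24.0 and 4359 ± 39.2 TPM (SD, n = 3 each), a ratio of 1.01. The 10 G2/M genes summed to between 2620 and 2812 TPM and also overlapped between the groups. Of the 8 role groups, the summed levels overlapped in 7. In the clamp and maturation group they ran from 1107 to 1130 TPM in IR+NC-LV and from 1154 to 1192 TPM in IR+PR-LV, and without PCNA that sum overlapped too (603 to 614 against 594 to 619 TPM).

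Of the 43 genes 0 passed the adjusted threshold in edgeR's quasi-likelihood test, where the background was 10 of 15340 genes (0.0652%), and 0 passed it under DESeq2. Unadjusted p under 0.05 was reached by 3 of the 43 (6.98%), with PCNA and RPA1 higher and E2F2 lower in IR+PR-LV, against 10.5% of all tested genes, and DESeq2 gave 2 (4.65%, PCNA and RPA1), against 4.71% of the genes it tested. The libraries of both groups did not overlap for 3 genes higher in IR+PR-LV (6.98%, PCNA, RFC4 and RPA1), against 7.46% of tested genes, and for 2 lower (4.65%, E2F2 and CLSPN), against 9.54%. Normalized by DESeq2, 4 genes (9.30%) did not overlap and were higher and 1 (2.33%) was lower, against 5.82% and 6.56% of the genes it tested, and with a trend on GC content removed 6 (14%) were higher and 1 (2.33%) was lower, against 11.2% and 11%. The share higher without overlap thus lay on either side of the background, depending on the setting. The share lower lay below it in these settings, as did the share with an unadjusted p under 0.05. DESeq2 was run without the filter on low counts, on 28825 genes against 15340 in edgeR. Its background is therefore not over the same genes, and the shares of the 2 methods are not alike. Fitted fold changes were above 0 for 23 genes and below 0 for 20, with a median of 0.02 on the log2 scale against 0.00 over all tested genes. In TPM, which differs from normalized counts by a factor per library, the mean of IR+PR-LV was above that of IR+NC-LV for 19 of the 43 genes and below it for 24, because ORC6, GINS3, POLE2 and CHAF1B, all close to 0, took the opposite sign.

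The intervals behind these counts were narrow. The 95% interval of the log2 fold change lay within ±0.5 for 42 of the 43 genes, against 10228 of 15340 tested genes. The median interval extended 0.18 to either side, against 0.25 over all tested genes, and the median size of the log2 fold change was 0.06 against 0.10. The tested genes were not matched to the 43 by level, and the medians were 16.3 and 76.2 TPM. Apart from E2F2, the fold changes ran from -0.21 (CDT1) to 0.20 (RPA1). The exception was E2F2, whose interval ran from -1.56 to -0.19.

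**Figure D1:**
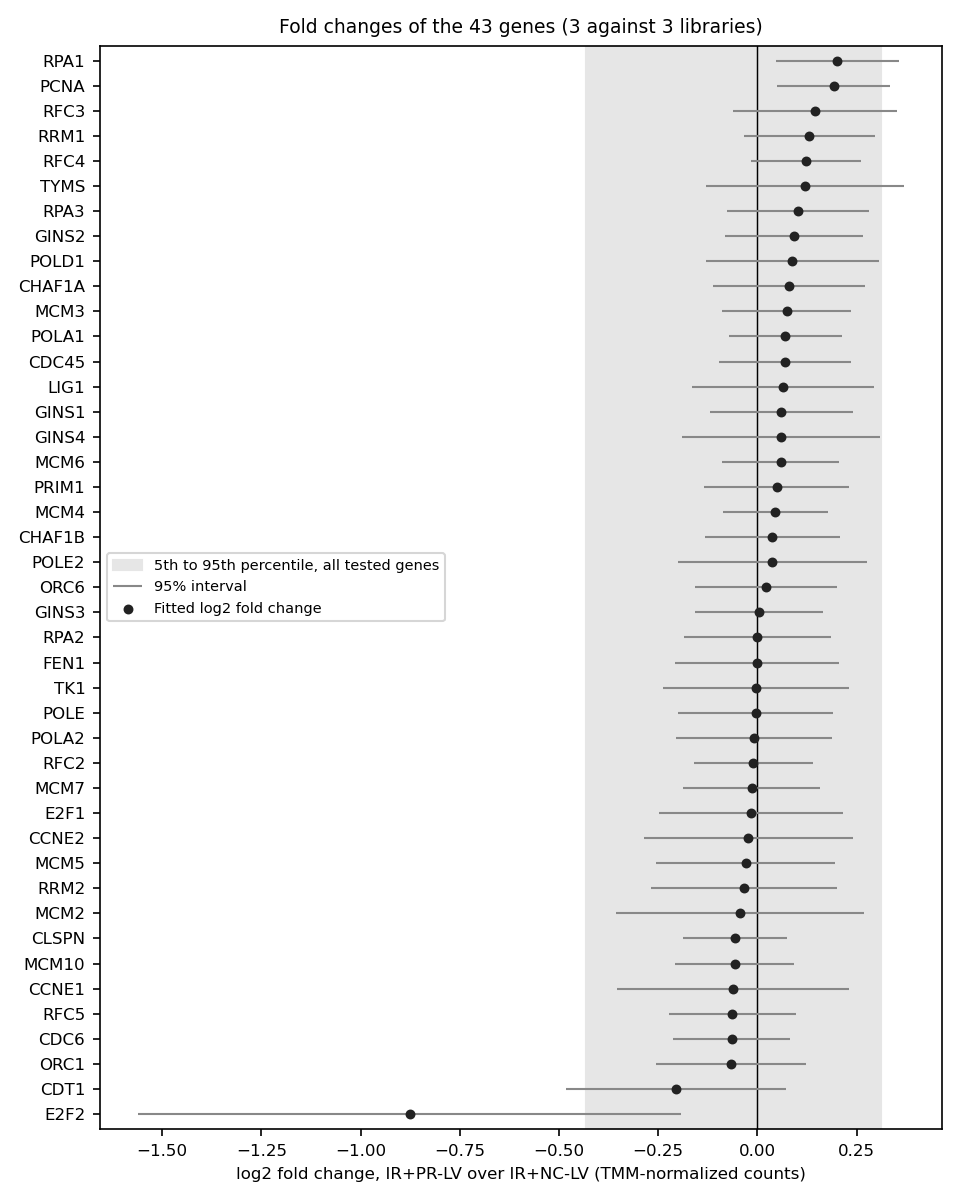
Points give the fitted log2 fold change of IR+PR-LV over IR+NC-LV (x axis, 3 against 3 libraries) for each of the 43 genes (y axis) and lines its 95% interval, over a band from the 5th to the 95th percentile of all tested genes (-0.43 to 0.31). RPA1 (0.20) and PCNA (0.19) stand at the top and E2F2 (-0.88) at the bottom, and all points but E2F2 lie inside the band.

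Among the licensing genes, the MCM2-7 subunits form the ring that becomes the replicative helicase. MCM4 was measured at 267, 256 and 262 TPM in IR+NC-LV and 265, 266 and 259 TPM in IR+PR-LV. The ranges overlapped, with a log2 fold change of 0.05 (SE 0.06, adjusted p = 0.823, edgeR with Benjamini-Hochberg adjustment). MCM3 ran from 145 to 165 TPM in IR+NC-LV and from 151 to 174 TPM in IR+PR-LV (log2 fold change 0.07, SE 0.07, adjusted p = 0.766, edgeR). MCM2 varied most among the 6, at 103, 97.2 and 140 TPM against 127, 99.4 and 91.7 TPM, so that 1 library of each group stood above the rest. An uncharacterized gene on the opposite strand covers 31.4% of the exon bases of MCM2 and was listed with 69 counts, against 13410 for MCM2. If the counting ignored strand, reads of both genes in that stretch could not be told apart.

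CDT1, the loading factor that geminin inhibits, had the most negative fold change among the genes above 20 TPM (chr16:88803789-88809258). It stood at 49.0, 46.3 and 50.9 TPM in IR+NC-LV and at 50.3, 37.1 and 36.2 TPM in IR+PR-LV. IR+PR-LV replicate 1 lay within the control range and the other two lay below every control library, and the log2 fold change was -0.21 (SE 0.12, adjusted p = 0.600, edgeR). Without that library it was -0.37 (SE 0.06, unadjusted p = 0.000584, adjusted p = 0.123, edgeR), and it was -0.14 without IR+PR-LV replicate 2 and -0.12 without replicate 3. CDC6, the ATPase that works with CDT1, ran from 77.8 to 80.0 TPM in IR+NC-LV and from 69.3 to 77.2 TPM in IR+PR-LV, and the log2 change of -0.06 had an interval from -0.21 to 0.08. ORC1 and ORC6, subunits of the origin recognition complex, ran from 31.5 to 40.8 TPM and from 140 to 164 TPM over the 6 libraries.

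In helicase activation, GINS1 ran from 102 to 110 TPM in IR+NC-LV and from 99.1 to 115 TPM in IR+PR-LV (log2 fold change 0.06, SE 0.08, adjusted p = 0.826, edgeR). GINS2 was at 39.7 to 43 TPM and 40.8 to 45.9 TPM (log2 fold change 0.09, SE 0.08, adjusted p = 0.719). Both GINS subunits overlapped between the groups. CDC45, which joins GINS and MCM2-7 in the active helicase, was at 43.4 to 47.2 TPM over all 6 libraries. MCM10, needed to start unwinding, stood at 36.0, 34.8 and 35.9 TPM against 33.4, 33.3 and 33.2 TPM. Its TPM ranges did not overlap while its normalized counts did, and the log2 fold change was -0.06 with an interval from -0.21 to 0.09.

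Of the polymerase genes, PRIM1, the catalytic primase subunit that makes the RNA primer, was the highest at 149 to 169 TPM in IR+NC-LV and 141 to 171 TPM in IR+PR-LV (log2 fold change 0.05, SE 0.08, adjusted p = 0.866, edgeR). POLA1, the catalytic subunit of polymerase alpha, was at 24.3 to 27.3 TPM and 24.6 to 26.8 TPM (log2 fold change 0.07, SE 0.06, adjusted p = 0.735). POLD1 and POLE, the catalytic subunits of polymerases delta and epsilon, were each highest in IR+PR-LV replicate 1, at 43.5 and 61.0 TPM. The other 5 libraries ran from 35.7 to 38.1 TPM for POLD1 and from 49.4 to 56.5 TPM for POLE.

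PCNA, the ring that tethers polymerases to DNA, gave the smallest p of the 43 (chr20:5114953-5126622). It was measured at 504, 518 and 516 TPM in IR+NC-LV and at 536, 577 and 597 TPM in IR+PR-LV. All 3 IR+PR-LV libraries stood above every control, by a log2 fold change of 0.19 (SE 0.06, interval 0.05 to 0.34), with an unadjusted p of 0.0143 and an adjusted p of 0.372 in edgeR's quasi-likelihood test. An antisense gene, PCNA-AS1, covers 26.7% of the exon bases of PCNA and was listed with 0 counts. PCNA-AS1 reads could not be told apart from PCNA reads if the counting ignored strand, and the strand setting is not given in the sources used here.

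RFC4, a subunit of the clamp loader that opens PCNA (chr3:186789900-186806482), was at 188, 192 and 194 TPM in IR+NC-LV and 204, 204 and 200 TPM in IR+PR-LV. The groups did not overlap, and the log2 fold change was 0.12 (SE 0.06, adjusted p = 0.527, edgeR). RFC3 was at 26.6, 26.8 and 25.1 TPM against 24.8, 29.7 and 30 TPM, with IR+PR-LV replicate 1 below every control and the other two above (log2 fold change 0.14, SE 0.09, adjusted p = 0.622). RFC2 (123 to 137 TPM) and RFC5 (90.7 to 109 TPM) overlapped between the groups, and 13.7% of the exon bases of RFC5 lie under WSB2 on the opposite strand. FEN1 and LIG1, the flap nuclease and ligase that finish the lagging strand, ranged from 109 to 133 TPM and from 28.9 to 35.2 TPM and were each highest in IR+PR-LV replicate 1.

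RPA1, the largest subunit of the single-strand binding protein (chr17:1830005-1900082), was at 134, 134 and 128 TPM in IR+NC-LV and at 155, 146 and 144 TPM in IR+PR-LV. Every IR+PR-LV library exceeded every control, with a log2 fold change of 0.20 (SE 0.07, interval 0.05 to 0.36), an unadjusted p of 0.0158 and an adjusted p of 0.380 in edgeR. Its partners in the same trimer did not separate. RPA2 ran from 155 to 175 TPM and from 155 to 164 TPM (log2 fold change -0.00, SE 0.08, adjusted p = 0.999), and its sign changed with the normalization. RPA3 ran from 73.3 to 80.9 TPM and from 78.8 to 83.3 TPM (log2 fold change 0.10, SE 0.08, adjusted p = 0.698). Whether RPA1 differed from RPA2 in its response was not tested.

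For nucleotide supply, RRM1, the large subunit of ribonucleotide reductase, was at 231, 232 and 228 TPM in IR+NC-LV and 225, 260 and 253 TPM in IR+PR-LV. IR+PR-LV replicate 1 lay below the controls and the other two above them, and the log2 fold change was 0.13 (SE 0.07, adjusted p = 0.575, edgeR). TYMS, which makes thymidylate, was at 100, 93.4 and 91.9 TPM against 86.3, 115 and 100 TPM (log2 fold change 0.12, SE 0.11, adjusted p = 0.745). The TYMS value was 0.00 without IR+PR-LV replicate 2 and 0.22 without replicate 1, and 53.8% of its exon bases lie under ENOSF1 on the opposite strand. RRM2, the small subunit of the reductase, ranged from 146 to 179 TPM and the salvage kinase TK1 from 150 to 182 TPM, with both groups overlapping.

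E2F1, an activator of the S phase genes (chr20:33675477-33686385), was at 81.8, 84.2 and 74.5 TPM in IR+NC-LV and 86.2, 75.8 and 70.3 TPM in IR+PR-LV. The groups overlapped (log2 fold change -0.02, SE 0.10, adjusted p = 0.967, edgeR), and its sign changed when single libraries were left out. E2F2, a related activator, was at 0.522, 0.846 and 1.01 TPM against 0.405, 0.351 and 0.511 TPM, from counts of 14, 29 and 21 against 11, 16 and 15. All 3 IR+PR-LV libraries lay below the controls, by a log2 fold change of -0.88 (SE 0.30, unadjusted p = 0.0169, adjusted p = 0.381, edgeR). The gap between the nearest libraries was small, at 0.522 against 0.511 TPM. The groups overlapped with the GC trend removed, and DESeq2 gave an unadjusted p of 0.0866. E2F2 is listed under 2 copies, and these counts are those of the copy on an alternate scaffold, while the copy on chromosome 1 received 2 counts in all.

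CCNE1 and CCNE2, the cyclins that activate CDK2 at G1/S, ranged from 35.0 to 49.7 TPM and from 23.1 to 31.7 TPM. Both overlapped between the groups. INTS8 on the opposite strand covers 63.2% of the exon bases of CCNE2. CHAF1A, the large subunit of the chromatin assembly factor CAF-1, was at 44.3 to 46.6 TPM in IR+NC-LV and 43 to 52.3 TPM in IR+PR-LV (log2 fold change 0.08, SE 0.09, adjusted p = 0.787, edgeR), and its partner CHAF1B at 21.6 to 25.7 TPM and 23.1 to 24.1 TPM. CLSPN, the adaptor of the replication checkpoint (chr1:35720213-35769985), was at 29.5, 28.1 and 31.7 TPM against 27.9, 28.0 and 27.6 TPM. Its groups did not overlap, but the gap between the nearest libraries was small, and the log2 fold change was -0.06 with an interval from -0.19 to 0.08.

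Subunits that assemble in equal numbers were not listed at equal levels, and much of the order recurred from library to library. In MCM2-7 the order by mean TPM was MCM4 (262.5), MCM7 (256), MCM3 (157), MCM2 (110), MCM6 (102) and MCM5 (52.5), with the first 5 times the last and that ratio between 4.32 and 5.69 in single libraries. MCM4 stood above MCM7, and MCM2 above MCM6, in only 4 of 6 libraries, so those neighbours did not separate. In GINS the order was GINS1 (107 TPM), GINS3 (48.0), GINS2 (42.1) and GINS4 (28.6). In the clamp loader it was RFC4 (197 TPM), RFC2 (130), RFC5 (103), RFC1 (96.3) and RFC3 (27.2), with RFC5 above RFC1 in 5 of 6 libraries. RPA2 (162 TPM) exceeded RPA1 (140) and RPA3 (78.9). In TPM, PRIM1 (159) stood far above PRIM2 (35.2), POLA1 (25.7) and POLA2 (20.7), its partners in polymerase alpha-primase. These levels are per length of all exons of a gene, so unused exons lower a gene's value. That length is the same in every library, so part of the recurrence is built in. Before division by length, PRIM1 had 8003 counts over all libraries, fewer than PRIM2 (8927) and POLA1 (8629) but more than POLA2 (3820). RFC4 (9542) had fewer than RFC3 (10959), and RPA2 (11356) fewer than RPA1 (27098). MCM4 (38826) and MCM5 (7519) stayed highest and lowest of MCM2-7. Which order holds per transcript was not tested.

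The libraries of the IR+PR-LV group differed from each other along the GC content of the transcripts. Across the 43 genes, the deviation of a gene in IR+PR-LV replicate 1 from its mean over the 6 libraries rose with GC content (Pearson r = 0.65, Spearman rho = 0.70). In IR+PR-LV replicates 2 and 3 it fell (r = -0.56 and -0.80), and in the IR+NC-LV libraries r was 0.18 to 0.23. These correlations are across genes that share a library and serve as a description. Over all tested genes with a GC value r was 0.42 in IR+PR-LV replicate 1, -0.13 in replicate 2 and -0.35 in replicate 3. Of the 14 genes with the highest GC (53.6% to 65.0%), which include CDT1 and MCM2, 13 stood above their mean in IR+PR-LV replicate 1 and 0 in replicate 3. Of the 14 with the lowest GC (36.9% to 45.4%), which include RFC3 and CCNE2, 4 and 10 did so.

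**Figure D2:**
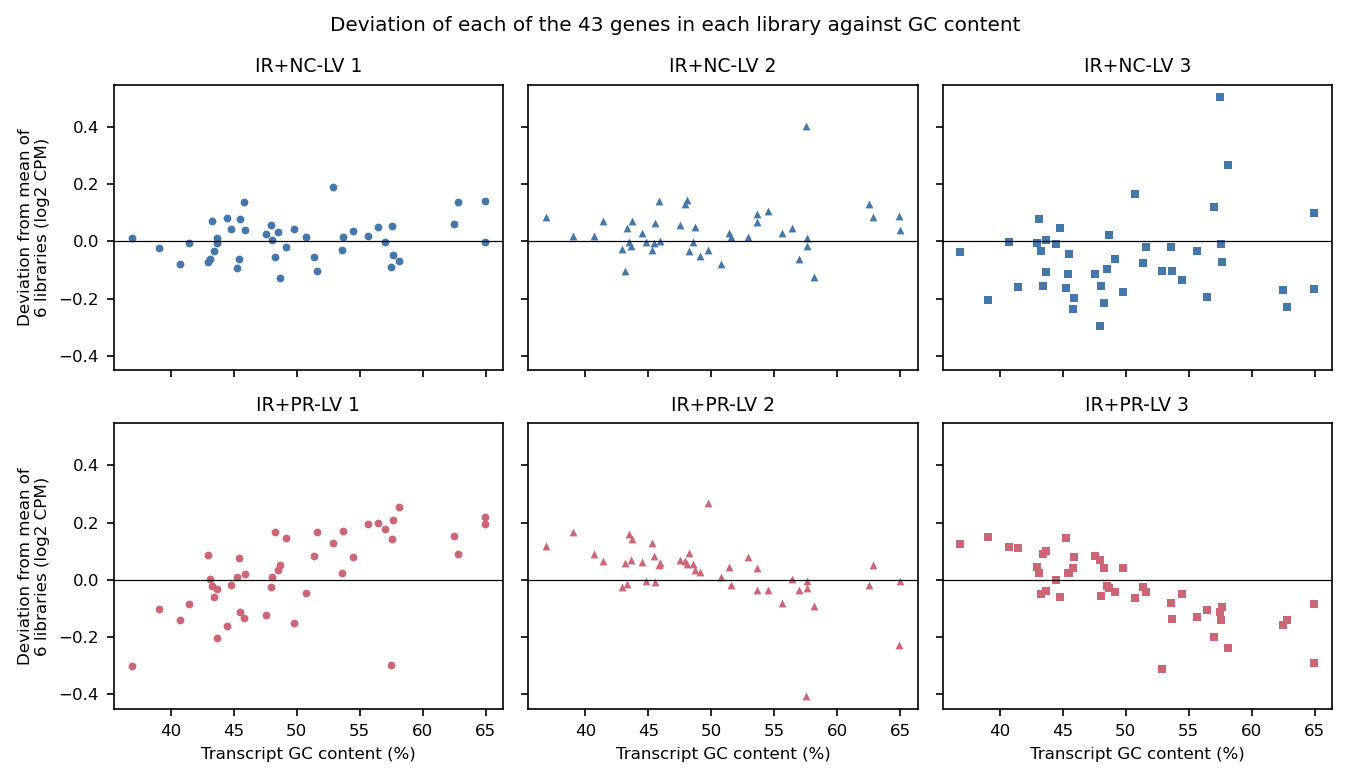
Each panel is 1 library and each point 1 of the 43 genes, with its transcript GC content (%) on the x axis and its deviation from its mean over the 6 libraries (log2 CPM) on the y axis. The points rise with GC in IR+PR-LV replicate 1 (r = 0.65) and fall in IR+PR-LV replicate 3 (r = -0.80).

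Several counts moved with that library. Without IR+PR-LV replicate 1, 7 of the 43 genes (16.3%) had an unadjusted p under 0.05, against 16.4% of 15784 genes tested. They were CDT1 and E2F2 lower and PCNA, RFC3, RRM1, RPA1 and TYMS higher. In the same setting 11 genes did not overlap and were higher (25.6%, background 18.6%) and 5 were lower (11.6%, background 18.2%). None of the 43 passed the adjusted threshold there, in edgeR. Without IR+PR-LV replicate 2 the count with an unadjusted p under 0.05 was 1, RPA1 (background 6.06%). Genes without overlap in either direction numbered 9 without IR+NC-LV replicate 3 (background 27.7%) and 8 without IR+PR-LV replicate 3 (background 26.6%). After removal of the GC trend within each library, an alternative chosen after seeing the data, 5 genes had an unadjusted p under 0.05 (11.6%, background 15.5%), namely CDT1 and E2F2 lower and PCNA, RPA1 and RFC4 higher, and 0 of the 43 passed the adjusted threshold. The part of GC content in these differences was otherwise not tested.

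Other genes of the same pathways were read from the same fit. Of 79 further genes in 4 lists (origin, fork, nucleotide and E2F/RB genes), 0 passed the adjusted threshold in edgeR, 9 had an unadjusted p under 0.05 (11.4%, against 10.5% of all tested genes), and 53 had a fold change above 0 (67.1%, against 51.1%) and 26 below, with a median log2 fold change of 0.04. Among 15 origin genes 0 reached an unadjusted p of 0.05, with MCMBP (log2 fold change 0.12, SE 0.06, adjusted p = 0.526), ORC3 (0.18, SE 0.10, 0.575) and DONSON (0.10, SE 0.06, 0.627) closest by p. Among 23 fork genes 2 (8.70%) did so, both higher, SUPT16H and DSCC1. SUPT16H, a subunit of the histone chaperone FACT, was at 260, 274 and 279 TPM in IR+NC-LV and 322, 309 and 315 TPM in IR+PR-LV, without overlap (log2 fold change 0.26, SE 0.06, adjusted p = 0.182, edgeR), and it passed the threshold under DESeq2 (adjusted p = 0.00657). Its FACT partner SSRP1 had a log2 fold change of 0.13 (SE 0.07, adjusted p = 0.568) and DSCC1, of an alternative clamp loader, one of 0.24 (SE 0.09, adjusted p = 0.401).

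Among 12 nucleotide genes 4 (33.3%, against 10.5% of all tested genes) had an unadjusted p under 0.05. NME1, a nucleoside diphosphate kinase, was at 139, 147 and 145 TPM against 205, 161 and 165 TPM (log2 fold change 0.33, SE 0.10, adjusted p = 0.326, edgeR), and passed with no filter (adjusted p = 0.0418). GMPS, which makes guanosine monophosphate and was named after its values were seen, had a log2 fold change of 0.14 (SE 0.06, adjusted p = 0.450). SHMT1 varied from 5.40 to 30.9 TPM within the controls alone and from 2.77 to 12.1 TPM in IR+PR-LV (-1.48, SE 0.62, adjusted p = 0.448), and its reads are split between listed copies. Leaving out IR+PR-LV replicate 2 gave -2.28 and leaving out IR+NC-LV replicate 2 gave -0.93, and it passed in edgeR with no filter (adjusted p = 0.000897).

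Among 29 E2F/RB genes 3 (10.3%) had an unadjusted p under 0.05. E2F8, a repressive E2F that is itself an E2F target, was at 10.3, 8.97 and 13 TPM in IR+NC-LV and 6.4, 7.05 and 6.33 TPM in IR+PR-LV, without overlap (log2 fold change -0.65, SE 0.14, adjusted p = 0.148, edgeR). It passed the adjusted threshold under DESeq2 (adjusted p = 0.0237) and in edgeR with no filter (adjusted p = 0.00984). CDKN1A, the p21 inhibitor of cyclin-dependent kinases, was at 70.7, 72.0 and 74.3 TPM against 67.2, 61.6 and 59.2 TPM (log2 fold change -0.17, SE 0.07, adjusted p = 0.453), and TFDP2, a dimerization partner of E2Fs, was at 33.5 to 34.4 TPM against 36.7 to 37.6 TPM (0.17, SE 0.06, adjusted p = 0.372). Of the 10 G2/M genes 0 had an unadjusted p under 0.05 in edgeR, with CCNB1 (log2 fold change 0.11, SE 0.07, adjusted p = 0.631), AURKB (-0.13, SE 0.09, 0.671) and TOP2A (0.09, SE 0.07, 0.710) closest.

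The fold changes were also read by promoter letters. The median log2 fold change was 0.02 for the 20 with a match and 0.02 for the 17 without, and both sets ran across 0. Their levels differed as a description, with a median of 51.1 TPM for genes with a match and 120.5 TPM for genes without.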

How the data were processed

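Total RNA of HK-2 cells was sequenced in 6 libraries, 3 for each lentivirus. The authors deposited for each library a table of raw read counts per gene together with FPKM and TPM values. Per the labels, the submitters' processing notes name CASAVA, featureCounts 2.0.1, DESeq2 1.16.1 and the build hg38; the aligner and the strand setting are not given in the sources used here. The deposited TPM values are counts scaled to exon length and to a fixed total, and they were used as levels; the deposited FPKM values follow from the same counts and were not used in any comparison. A table lists 38648 genes and copies under 34644 names; where a name is listed more than once, the copy with most counts was used.

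Counts were tested with edgeR 4.0.16 (R 4.3.3), by the quasi-likelihood test with TMM normalization, no covariates, filterByExpr (minimum count 10, minimum total 15) and Benjamini-Hochberg adjustment over 15340 genes at 0.05. The fit was tested on simulated data. Fold changes are on the scale of TMM-normalized counts, and groups were called not overlapping on TMM-normalized CPM. With 3 against 3 libraries an exact two-sided permutation test of a single value cannot go below p = 0.1, so none was used. Depth was 13407074 to 28540041 counts per library, and the intervals cover the spread among these libraries.

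The 43 genes and all lists were chosen with earlier results of these data known. Levels are given for every gene, and fold change, standard error and adjusted p for the 12 members with the smallest p, the highest member of each of the 8 roles and the 3 smallest p of each other list, except that 1 item named by this rule is not reported here. Alternatives comprised DESeq2 1.42.0, normalization by RLE or by the upper quartile, testing without a filter or with at least 10 counts in every library, a replicate block, listed copies summed, each library left out and, added after seeing the data, removal of a lowess trend on GC content (GENCODE release 29 transcripts, known for 43 of 43 genes and 90.4% of tested genes). Same-numbered libraries of both groups correlated at -0.0088 to 0.071, so 0 of 3 pairs passed 0.1 and the numbers were not taken as pairs. Promoter sequences are from RefSeq (GRCh38.p14).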

Additional observations from a re-analysis of the deposited data

How the results depend on the processing

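None of the 43 genes passed the adjusted threshold in edgeR or DESeq2 under any of the alternatives run, and their median log2 fold change stayed between 0.0018 and 0.057. The number of all tested genes past the threshold, 10, was 168 under DESeq2, 342 with no filter, 3 with the replicate block, 18 with the GC trend removed, 1 at an adjusted p under 0.01, and 1 to 28 when single libraries were left out. Members with an unadjusted p under 0.05 numbered 5 with the GC trend removed (11.6%, against 15.5% of tested genes). With a library left out they numbered from 1 (without IR+PR-LV replicate 2, background 6.06%) to 7 (without IR+PR-LV replicate 1, 16.3%, background 16.4%). Members whose groups did not overlap numbered 6 to 16 with a library left out. The 16, without IR+PR-LV replicate 1, were 11 higher (25.6%, background 18.6%) and 5 lower (11.6%, background 18.2%). The background of the lowest count, 6, is not given here. The log2 fold change of RPA2, close to 0, turned to 0.0028 (RLE), 0.010 (DESeq2), 0.0084 (no filter), 0.0037 (replicate block), 0.00048 (copies summed) and 0.0095 (GC trend removed), and ran from -0.071 to 0.075 with a library left out. With a library left out, E2F1 ran from -0.099 to 0.055 and CHAF1A from -0.0092 to 0.14. Of 462 values of 33 named genes over 14 alternatives, 445 kept their direction and side of the threshold, 12 changed sign, and 5 passed the threshold that were short of it before: SUPT16H and E2F8 under DESeq2, and NME1, SHMT1 and E2F8 with no filter. The cause was not tested. The replicate block, fitted although the numbers share only a label, changed no call among the 43 genes. With 3 libraries a group, log2 fold changes of 0.19 (PCNA) and 0.20 (RPA1) did not pass the adjusted threshold. Leaving out 1 library moved several of the small fold changes by over 1.5 times, RRM1 between 0.081 and 0.19, RFC3 between 0.083 and 0.23 and CDT1 between -0.37 and -0.12. The absence of strand information limits CCNE2, TYMS, MCM2, PCNA and RFC5.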
